A study of Rattus norvegicus with 24 samples.

Results

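The respiratory chain and the ATP synthase of rat mitochondria were followed in the supraoptic nucleus, a cluster of large hypothalamic neurons that secrete vasopressin and oxytocin into the blood. The members were all probe sets whose single gene symbol began with Ndufa, Ndufb, Ndufc, Ndufs, Ndufv, Sdha, Sdhb, Sdhc, Sdhd, Uqcr, Cox4, Cox5, Cox6, Cox7, Cox8 or Atp5. They were 101 of 31099 probe sets and stood for 90 genes, 1 of them a transcribed pseudogene, Cox6c-ps1. Complex I had 37 member probe sets for 34 genes, complex II 5 for 4, complex III 8 for 7, complex IV 17 for 17 and the ATP synthase, complex V, 20 for 16. The remaining members were 7 probe sets of complex I assembly factors, 5 of complex II assembly factors, Cox6c-ps1 and Ndufa4l2. Ndufa4 was counted in complex IV, where its protein sits. A further 7 probe sets that also matched another symbol were left out by the rule, among them those of Atp5mc1, Atp5mc2, Cox7a2 and Uqcrb, and the subunits encoded by mitochondrial DNA do not carry these prefixes.

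Each Affymetrix array was hybridised with RNA of a pool of 5 Sprague Dawley rats. The males were 10 to 12 weeks old: 5 arrays came from males dehydrated for 3 days and 5 from control males, extracted with QIAzol and RNeasy, amplified with the Ambion MessageAmpII kit and read with GCOS 1.2. The females were 4 arrays of rats kept without water for 72 hours with free access to food and 4 of euhydrated controls, extracted with Trizol, labelled with Affymetrix reagents and read with MAS5. Sex, extraction, labelling and software change together between the sets and cannot be told apart. The fifth dehydrated female array, on which Avp and Oxt were nearly silent, was left out by the rule, and the 5 lactating samples were not analysed here. Avp and Oxt, which define the nucleus, read at least 3644 and 3001 on each of the 18 arrays used, against array medians of 36.1 to 46.5.

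Complex I takes electrons from NADH and complex II takes them from succinate, and both pass them through ubiquinone to complex III. From there cytochrome c carries them to complex IV, which reduces oxygen. Complexes I, III and IV pump protons across the inner mitochondrial membrane, and the ATP synthase makes ATP from their return. Magnocellular neurons fire more and make more hormone during water deprivation, both of which use ATP.

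The promoters of these genes, which the choice of members did not use, were read for 3 short strings known from genes of the respiratory chain. RefSeq promoter windows of 250 bases before to 50 bases after the start (build GRCr8) were found for 82 of the 90 genes. The NRF-1 core TGCGCA was present on either strand, which are the same for this palindrome, in 22 of the 82 windows (26.8%), against 8.74% of 21851 windows of 19005 protein-coding genes. The GABP core CCGGAAG, also called NRF-2, was in 25 (30.5%, against 10.7%) and the YY1 core AAGATGGC in 17 (20.7%, against 3.67%), each on either strand. The last 3 letters of CCGGAAG are the first 3 of AAGATGGC, and a run holding both counted for each. At least 1 of the strings was in 50 of 82 windows (61.0%), against 20.6% of all windows. Among members that passed the test in dehydrated males, given further on, 11 of 21 windows held at least 1, and among the others 39 of 61. A match is a string of letters in a window and was not tested as a binding site.

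The 120 bases before the start are shown for 5 of the genes that rose in dehydrated males, because they differ in these letters. Capitals mark TGCGCA or CCGGAAG read on the printed strand. They lie on GRCr8 at chr20:9613666-9613785 (plus strand) for Ndufv3, chr7:10214351-10214470 (minus strand) for Atp5f1d, chr4:53971236-53971355 (minus strand) for Ndufa5, chr19:41477292-41477411 (minus strand) for Ndufb7 and chr10:38089979-38090098 (minus strand) for Uqcrq. The stretches of Ndufv3 and Atp5f1d, the genes with the largest rises, held neither string.
Ndufv3: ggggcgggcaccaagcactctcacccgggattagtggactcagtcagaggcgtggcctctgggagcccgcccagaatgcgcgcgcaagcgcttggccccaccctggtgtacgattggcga
Atp5f1d: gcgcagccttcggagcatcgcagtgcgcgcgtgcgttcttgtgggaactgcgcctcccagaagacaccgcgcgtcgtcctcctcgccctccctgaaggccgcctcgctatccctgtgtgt
Ndufa5: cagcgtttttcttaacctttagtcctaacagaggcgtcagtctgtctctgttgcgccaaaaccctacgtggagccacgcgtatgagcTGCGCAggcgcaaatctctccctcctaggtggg
Ndufb7: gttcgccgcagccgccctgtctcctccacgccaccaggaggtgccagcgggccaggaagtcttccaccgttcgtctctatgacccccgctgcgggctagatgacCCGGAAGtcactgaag
Uqcrq: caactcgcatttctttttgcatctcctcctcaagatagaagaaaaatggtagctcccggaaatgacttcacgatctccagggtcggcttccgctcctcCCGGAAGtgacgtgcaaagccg

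The first comparison asked which subunit transcripts of the male nucleus differ after 3 days of dehydration. Of the 99 members above the filter on low levels, 21 rose and 2 fell in dehydrated males (limma adjusted p under 0.05). Over all 21729 probe sets tested, 8.33% rose and 9.37% fell, so at this scaling the members had a larger share of rises and a smaller share of falls than the array. The sizes were small: the rises ran from 0.14 to 0.66 on the log2 scale, and the second largest was 0.41. The rises lay in complexes I (11 of 37), III (2 of 8), IV (2 of 15) and V (6 of 20), and none of the 5 complex II or 12 assembly factor probe sets passed. This balance depended on how arrays were scaled: 10 rose and 6 fell after quantile normalization, and 33 rose and 1 fell after centring arrays on their median. Over all probe sets the split was 1809 rises to 2035 falls, 1866 to 1588 after quantile normalization and 2711 to 1091 after centring. The shares of rises and falls among the members were thus close to those of the array after quantile normalization. The median log2 fold change was then 0.021 over the members and -0.0048 over all probe sets tested.

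**Figure D1:**
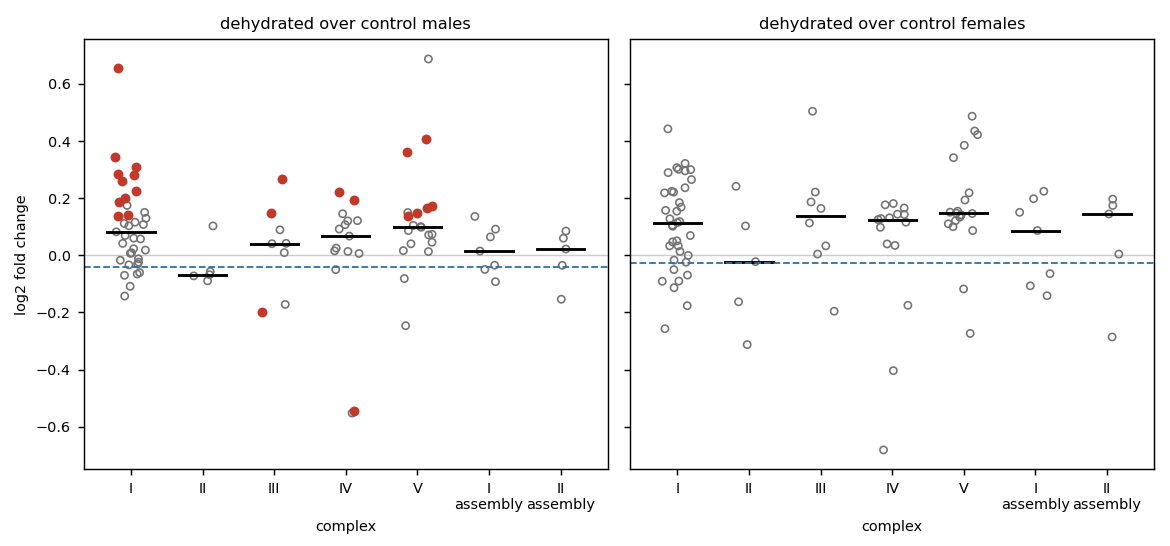
Log2 fold change, dehydrated over control, of each member probe set by complex, for males on the left and females on the right. Filled red points passed the adjusted p threshold, open points did not, black bars are class medians and the dashed line is the median of all probe sets tested. The 23 filled points are all in the male panel, 21 of them above 0.

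The class medians lay close to each other. In males the median log2 fold change was 0.099 in complex V, 0.082 in complex I, 0.067 in complex IV, 0.041 in complex III and -0.068 in complex II, against -0.042 over all probe sets tested. After quantile normalization that of complex III was -0.035 and that of complex II -0.15, and after centring that of complex II was 0.0097, so the direction of these 2 classes depends on the scaling. The fold change was above 0 for 27 of 37 complex I, 1 of 5 complex II, 6 of 8 complex III, 12 of 15 complex IV and 18 of 20 complex V probe sets. Over all probe sets tested it was above 0 for 43.0%, and for 49.1% after quantile normalization, for which no count by class is given. The probe sets were read from the same arrays and some share a gene, so they are not separate readings. At the scaling used for the tests, the median deviation of the members on each array separated the groups for complexes I and III. Their dehydrated male arrays all lay above the control male arrays, by narrow gaps. The lowest dehydrated and highest control arrays were at 0.0173 and 0.0134 in complex I and 0.0069 and -0.0117 in complex III. The median deviations of complexes II, IV and V overlapped between the groups.

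Complex I gave 11 of the 21 rises, all of them of accessory subunits, as are most of its members. The largest was that of the brighter probe set of Ndufv3, an accessory subunit beside the NADH-binding module, which read 735, 769.6, 719.6, 716 and 750.5 in dehydrated males, against 397, 449.9, 468, 490.5 and 535 in control males. The groups were far apart, with a log2 fold change of 0.66 ± 0.069 (SE, n = 5 each; limma adjusted p = 2.26e-05). The other Ndufv3 probe set, of low signal, averaged 59.6 ± 9.65 in dehydrated and 57.7 ± 9.14 in control males (SD, n = 5 each) and did not pass, so the 2 probe sets of this gene disagree.

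Ndufc2, a membrane arm subunit, read 1782, 1692, 1614, 1593 and 1622 in dehydrated males, against 1406, 1420.5, 1194, 1344 and 1336 in control males. All 5 dehydrated arrays lay above all controls, and the log2 fold change was 0.31 ± 0.054 (limma adjusted p = 0.00141). Ndufb7, another subunit of the membrane arm, read 736, 854, 813, 787 and 773 in dehydrated males, against 595, 640.4, 663, 659.5 and 700.2 in control males, again without overlap (0.28 ± 0.057, adjusted p = 0.00406). Ndufa5, of the arm that projects into the matrix, read 315, 380.1, 365, 395 and 351 in dehydrated males, against 240.5, 300.0, 282, 277 and 317 in control males. Its lowest dehydrated array lay just under its highest control, and the log2 fold change was 0.35 ± 0.081 (adjusted p = 0.00891).

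The other complex I rises were of like size or smaller. They were those of the matrix arm subunits Ndufa2 (0.22) and Ndufa12 (0.19) and of the membrane arm subunits Ndufb6 (0.28), Ndufc1 (0.26), Ndufb11 (0.20), Ndufb9 (0.14) and Ndufb2 (0.14), on the log2 scale, and none of these 7 passed after quantile normalization. Ndufa6 (-0.17), Ndufb10 (-0.19) and Ndufa13 (-0.14) of complex I passed as falls after quantile normalization only (limma adjusted p = 0.014, 0.018 and 0.031). With each of the 10 arrays left out in turn, Ndufb9 passed 3 times and Ndufb2 1 time. The core subunits that carry the redox centres did not pass: Ndufs1 had a log2 fold change of -0.012 ± 0.061, Ndufs7 of 0.0089 ± 0.051 and Ndufv1 of -0.017 ± 0.072. Of the same kind, Ndufs8 had 0.11 ± 0.063 and Ndufv2 0.023 ± 0.057. Ndufs3, a further core subunit, had 0.082 ± 0.055 and did not pass. No difference between core and accessory subunits was tested. Across the complexes, the dehydrated arrays lay above all control arrays for 16 of the 99 members and below them for 2, against 6.82% and 5.84% of all probe sets.

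**Figure D2:**
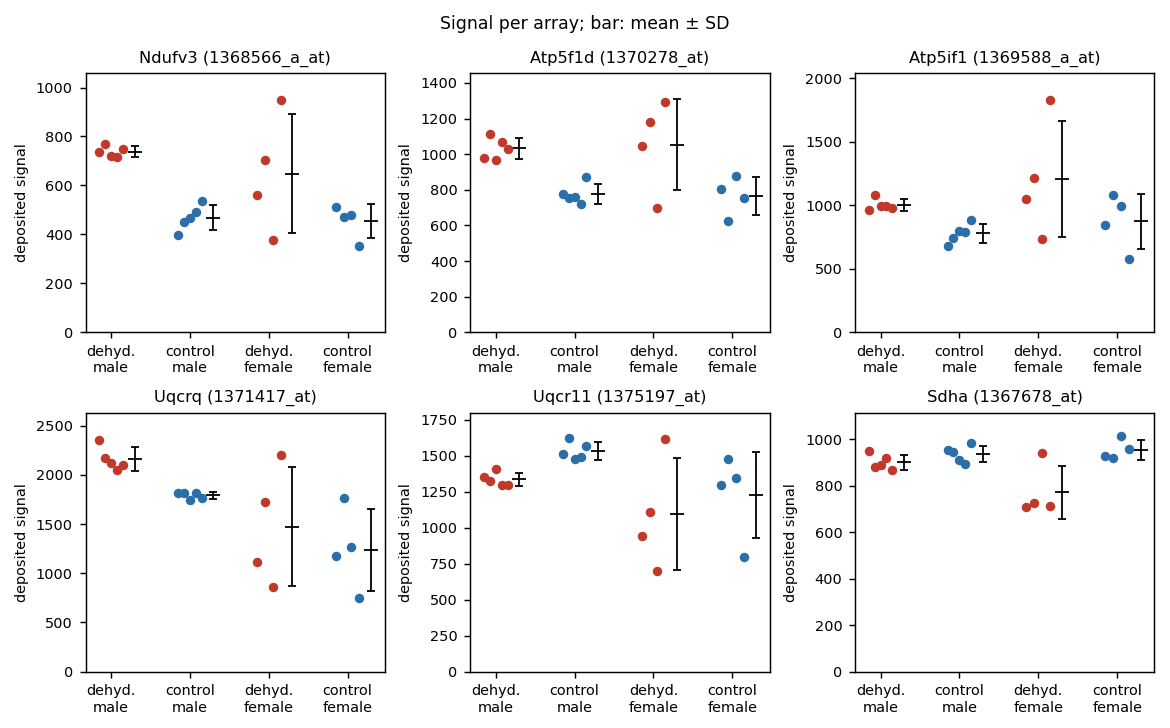
Deposited signal per array of 6 members, with dehydrated males and females in red and their controls in blue; black bars give the mean and SD of a group. Dehydrated and control males do not overlap for Ndufv3, Atp5f1d, Atp5if1, Uqcrq and Uqcr11, and the female arrays of each of the 6 spread more widely than the male arrays.

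In complex II none of the 5 probe sets passed in males, at an unadjusted p under 0.05 either. Sdha, the flavoprotein that oxidises succinate, averaged 901 ± 32.2 in dehydrated and 938 ± 35.4 in control males, a log2 fold change of -0.057 ± 0.048. After quantile normalization it was -0.15 and passed (limma adjusted p = 0.027), and after median centring it was 0.021 (adjusted p = 0.83). Sdhb, the iron-sulphur subunit, was the only 1 with a positive value, 0.10 ± 0.056 (limma adjusted p = 0.23).

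In complex III the called members did not move the same way. Uqcrq, a small subunit known as the ubiquinone-binding protein, read 2358, 2174, 2124, 2048 and 2104 in dehydrated males, against 1816, 1818, 1742, 1815 and 1767 in control males. The groups did not overlap, and the log2 fold change was 0.27 ± 0.045 (limma adjusted p = 0.00103). Uqcr11, the smallest subunit of the complex, fell: it read 1352, 1323, 1407, 1299.6 and 1296 in dehydrated males, against 1513, 1621, 1475, 1491 and 1566 in control males. Every dehydrated array was below every control, with a log2 fold change of -0.20 ± 0.045 (adjusted p = 0.0076), and the call was lost when arrays were centred on their median. Uqcrc1, a core protein on the matrix side, rose by 0.15 ± 0.045 (adjusted p = 0.032), a call lost after quantile normalization and without dehydrated array 1, 3 or 5 or control array 3 or 4 (highest adjusted p = 0.071). Uqcrfs1, the Rieske iron-sulphur protein, had 0.089 ± 0.052 without passing.

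In complex IV the isoform pair Cox6b1 and Cox6b2 went opposite ways. Cox6b1, the widely expressed form of a subunit that faces the intermembrane space, read 1772, 1602, 1638, 1577 and 1692 in dehydrated males, against 1416, 1475, 1349, 1364 and 1486 in control males. The groups did not overlap, and it rose by 0.22 ± 0.048 (limma adjusted p = 0.00552). Cox6b2, known as the testis form, read 23.1, 27.6, 22.9, 21.9 and 28 in dehydrated males, against 47.2, 42.2, 39.9, 30.9 and 35.6 in control males, and fell by 0.54 ± 0.13 (adjusted p = 0.012). Its signal lay close to the array median, and it was left out under a filter at the 50th percentile.

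Cox5b, a zinc-binding subunit on the matrix side, rose by 0.19 ± 0.054 (adjusted p = 0.023), with 1 control array, at 2309, within the dehydrated range of 2265 to 2534, and the call was lost without dehydrated array 1 or 4 or control array 3 or 4 (highest adjusted p = 0.059). The other isoform sets gave no calls in males. Cox4i1, the main form of subunit 4, had a log2 fold change of 0.11 ± 0.047 and Cox4i2, the form linked to low oxygen, 0.092 ± 0.14. Cox6a1 had 0.12 ± 0.043 (adjusted p = 0.062) and Cox6a2, the heart and muscle form, -0.55 ± 0.21 (adjusted p = 0.080). Cox8b and Cox7b2 stayed under the filter in both sets.

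In the ATP synthase the largest rise was that of Atp5f1d, the delta subunit of the central stalk. It read 980.5, 1116, 968, 1068 and 1029 in dehydrated males, against 779, 753, 759.9, 721 and 871 in control males. All dehydrated arrays lay above the controls, and the log2 fold change was 0.41 ± 0.06 (limma adjusted p = 0.000338). Atp5if1 (its brightest probe set), the inhibitor that blocks the enzyme from running backwards, read 962, 1078, 992, 996 and 980.4 in dehydrated males, against 679, 746, 798, 792 and 886 in control males. It too showed no overlap and rose by 0.36 ± 0.065 (adjusted p = 0.00171), while 2 further Atp5if1 probe sets of low signal had -0.081 ± 0.14 and 0.15 ± 0.16 and did not pass.

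Smaller rises were those of Atp5po (0.17 ± 0.042), the subunit that joins the peripheral stalk to the catalytic head, Atp5f1e (0.17 ± 0.051), the epsilon subunit of the central stalk, Atp5mpl (0.15 ± 0.049), a small membrane subunit, and Atp5mc3 (0.14 ± 0.043), which encodes a form of the rotating ring protein. After quantile normalization only Atp5mc3 of these 4 passed, and with each of the 10 arrays left out in turn, Atp5po passed 10 times, Atp5mc3 4 times, Atp5f1e 2 times and Atp5mpl 1 time. The other, dimmer Atp5po probe set had a log2 fold change of 0.69 and did not pass. The catalytic head itself did not pass: Atp5f1b, the beta subunit, had 0.10 ± 0.05 (adjusted p = 0.18) and Atp5f1a, the alpha subunit, 0.017 ± 0.045. No member of the ATP synthase fell.

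The assembly factors of complexes I and II gave no calls, where 8.33% of all probe sets rose and 9.37% fell. Their median SE was 0.086 and 0.078, against 0.046 in complex III to 0.058 in complex I, so small changes are harder to detect in them. Ndufaf4 had the smallest p among those of complex I, with 0.14 ± 0.085 (limma adjusted p = 0.30), and Sdhaf2 among those of complex II, with -0.15 ± 0.078 (adjusted p = 0.20). At an unadjusted p under 0.05 the count was also 0 in both classes, and over all members 31 were higher and 4 lower, where 13.1% and 18.2% of all probe sets were.

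The spread between male arrays was small for these genes. The median SD within groups was 0.085 on the log2 scale over the 99 members, against 0.18 over all probe sets tested and 0.13 over the brighter ones, with a level above the median of those tested. The fit was also repeated on the probe sets above the 50th percentile: 23 of 91 members rose and 1 fell, where 11.8% and 13.0% of those probe sets did. With 1 probe set a gene, 24 of 86 member genes rose and 1 fell, where 13.7% and 12.3% of genes did.

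Some cell type markers moved with dehydration in males. None of the 6 oligodendrocyte or 6 endothelium markers tested passed, and 1 of 2 choroid plexus markers fell. Of 8 magnocellular neuron markers 3 rose, Calb2 by 0.78, Scg2 by 0.76 and Pdyn by 0.87 on the log2 scale, and Cartpt fell by 0.34. The median over the 8 was 0.051. Avp and Oxt did not pass. Avp read 4397 to 5928 in dehydrated and 4337 to 5616 in control males, and Oxt 3872 to 5337 and 3950 to 5572. The mean log2 level of the 8 markers was 12.94 to 13.0 in dehydrated and 12.59 to 12.87 in control males, without overlap. Their summed signals overlapped, with 15795 to 18533 in dehydrated and 13505 to 16385 in control males. The mural cell and meninges markers fell for 9 of 10 genes, with summed signals of 1400.1 to 3666 in dehydrated and 3038 to 6891 in control males. Blood markers fell for 2 of 2 genes, with sums of 751 to 1069.6 in dehydrated and 1576 to 2154 in control males. Astrocyte markers fell for 3 of 7 (sums of 10173 to 12425 in dehydrated and 11886 to 12738 in control males) and microglia markers for 3 of 5 (sums of 689.7 to 835 in dehydrated and 788 to 1086 in control males). Of 7 neuron markers 1 rose and none fell (7602 to 8659 in dehydrated and 6686 to 7868 in control males), and no marker of these lists was at 0 on any array. The actin 3' to 5' signal ratio, a measure of RNA and labelling quality, was 6.83 to 9.0 in dehydrated and 5.23 to 7.12 in control males. The part of these shifts in the member values was not tested. In RNA of whole tissue, fewer cells of a type and less RNA per cell cannot be told apart.

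The second comparison asked the same of the female nucleus after 72 hours without water. None of the 99 members passed (limma adjusted p), where 1.77% of all probe sets rose and 1.19% fell. At an unadjusted p under 0.05, 2 members were higher and 2 lower, where 8.33% and 10.6% of all probe sets were. The median log2 fold change was 0.13 over the members and -0.027 over all probe sets. It was above 0 for 74 of 99 members, against 46.3% of all probe sets. The members moved together between arrays, as given below, so these are not 99 separate readings. By class the median was 0.15 in complex V, 0.14 in complex III, 0.13 in complex IV, 0.11 in complex I and -0.022 in complex II. After quantile normalization the median over the members was -0.0023 and that of complex IV -0.021, and after centring that of complex II was 0.019, so these directions depend on the scaling.

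Atp5f1d had nearly the same fold change in females as in males. It read 1045, 1180.3, 699 and 1293 in dehydrated females, against 804, 623, 876 and 756 in control females, and 3 of the 4 dehydrated arrays lay above all controls. The log2 fold change was 0.44 ± 0.18 (SE, n = 4 each; limma adjusted p = 0.22). Without dehydrated female array 3, the low one, it was 0.62 ± 0.13 (adjusted p = 0.033). It did not pass with any other single array left out (highest adjusted p = 0.41).

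The members below 0 at an unadjusted p under 0.05 were Sdha and Cox6a2. Sdha read 707, 728, 942 and 712 in dehydrated females, against 928, 919, 1015 and 957 in control females, with array 3 alone within the control range. The log2 fold change was -0.31 ± 0.12 (limma adjusted p = 0.17), and -0.41 ± 0.091 without array 3 (adjusted p = 0.038). Sdha did not pass with any other single array left out (highest adjusted p = 0.36). Cox6a2 was low in both groups, at 20.2, 39.9, 23.8 and 31.3 in dehydrated females, against 50, 55.7, 52.1 and 38.7 in control females (-0.68 ± 0.21, adjusted p = 0.10).

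Ndufa9, a subunit at the joint of the arms of complex I, read 684, 716, 638 and 839 in dehydrated females, against 579.5, 585, 579 and 637 in control females (0.27 ± 0.11, limma adjusted p = 0.21). Its other, dimmer probe set had the opposite sign, with means of 21.8 in dehydrated and 26.9 in control females (-0.26 ± 0.22, adjusted p = 0.57). The dehydrated arrays of the brighter probe set lay just above its controls, as did those of Atp5f1a and Uqcrc2, and these 3 were the only members without overlap above the controls, where 5.31% of all probe sets were. No member lay wholly below, where 7.03% of all probe sets did. The genes that led in males had a wide spread in females: Ndufv3 read 559, 705, 375 and 950.1 in dehydrated females, against 511, 472, 478 and 354 in control females (0.44 ± 0.23, adjusted p = 0.33). Atp5if1 read 1047, 1212, 736 and 1826 in dehydrated females, against 847, 1077, 993 and 579.8 in control females (0.42 ± 0.25, adjusted p = 0.40).

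The female arrays differed among themselves far more in these genes than the male arrays did. The median SD within groups was 0.37 over the members, against 0.24 over all probe sets tested and 0.19 over the brighter ones, and it was larger in females than in males for 90 of 99 members. The median SE of a fold change was 0.21 in females and 0.057 in males. The members moved together: dehydrated female array 4 was the highest of the 8 for 64 members, and dehydrated female array 3 or control female array 4 the lowest for 39 and 29. The median range over the 8 arrays was 1.06 on the log2 scale, against 0.32 over the 10 male arrays.

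**Figure D3:**
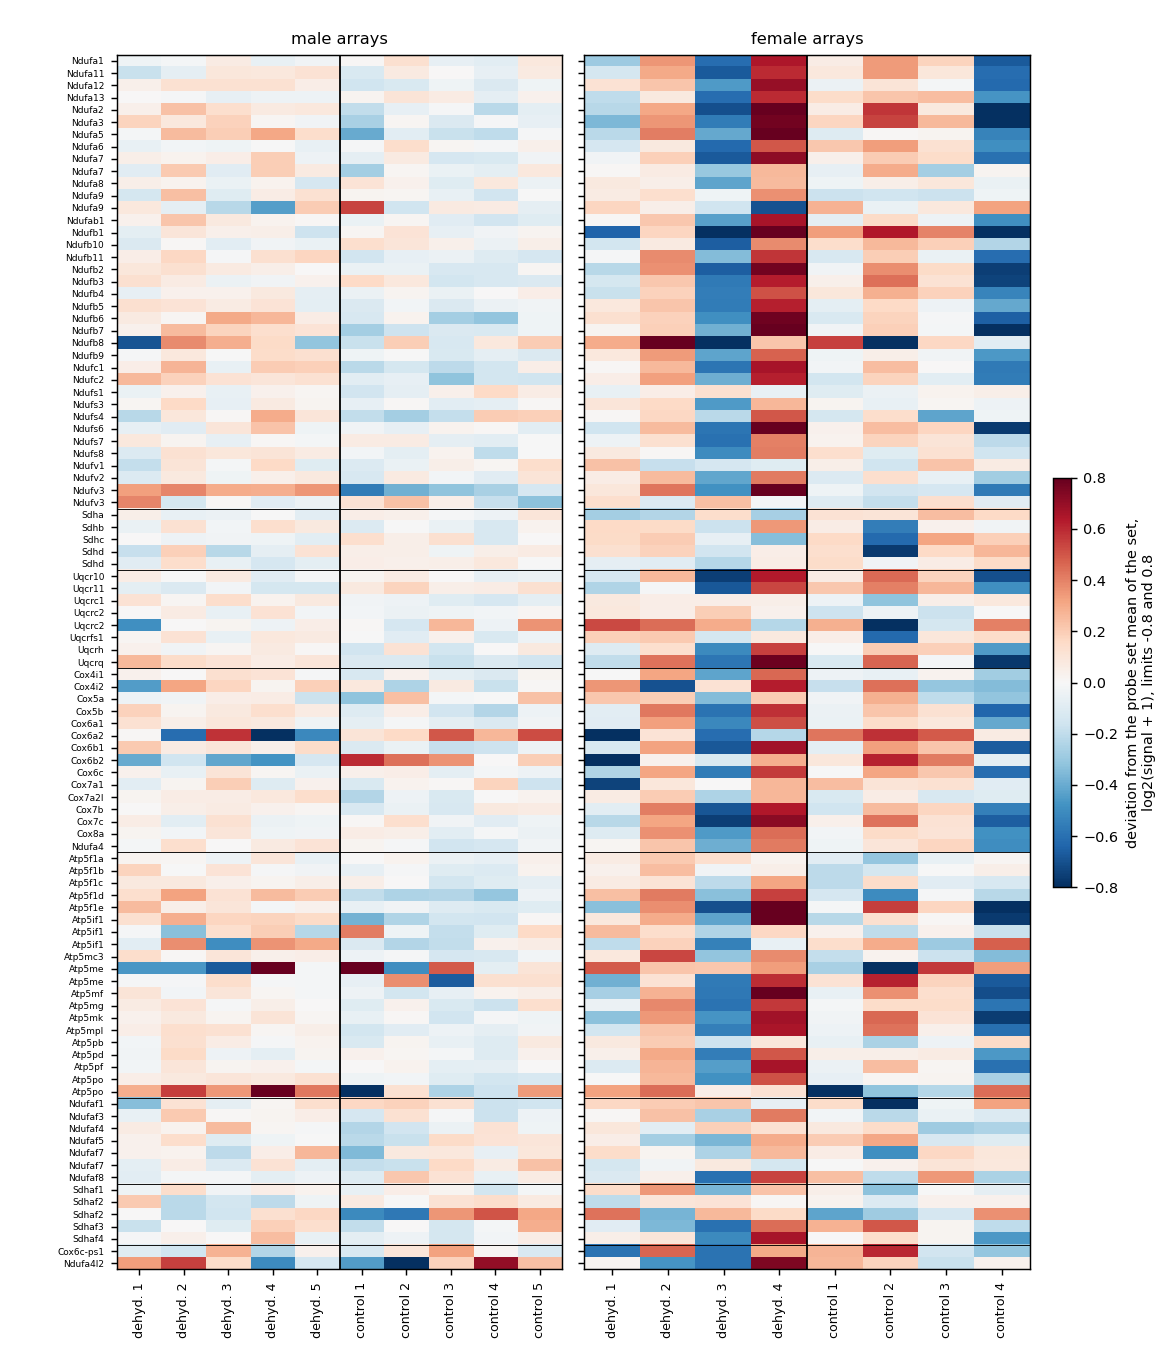
Deviation of each of the 99 members from its mean over the arrays of a set, as log2(signal + 1), with males on the left and females on the right, and with lines between dehydrated and control arrays and between classes from complex I at the top to assembly factors and other members at the bottom. Dehydrated female array 4 is high and arrays dehydrated 3 and control 4 are low across most rows, while most male rows are pale.

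**Figure D4:**
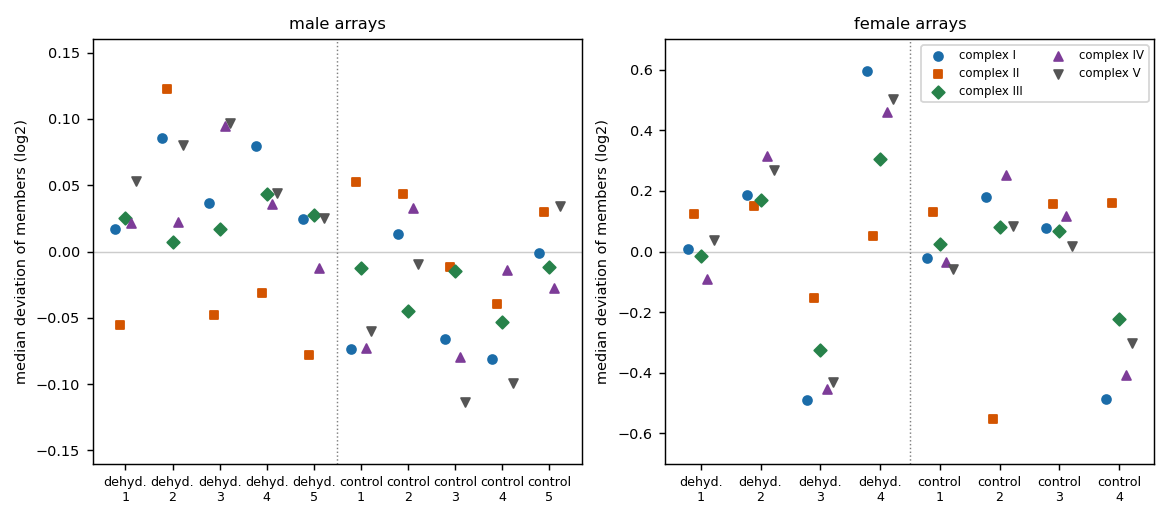
Median deviation on the log2 scale of the members of each complex on each array, male arrays on the left and female arrays on the right, on axes of different length. Complex I lies at 0.59 on dehydrated female array 4 and at -0.49 on dehydrated female array 3, and complex II at -0.55 on control female array 2.

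The pattern was not the same for all subunits. The small subunits Ndufb1, Atp5f1e, Ndufa2, Cox7c and Ndufb2 were higher on dehydrated female array 4 than on dehydrated female array 3 by 1.93, 1.61, 1.54, 1.47 and 1.42 on the log2 scale. Core and catalytic subunits ran over a wide range, from 0.99 for Ndufs7, 0.90 for Ndufs8, 0.83 for Ndufv2, 0.71 for Ndufs3 and 0.52 for Sdhb to 0.082 for Atp5f1b, 0.041 for Ndufv1, -0.0078 for Uqcrc1, -0.11 for Atp5f1a, -0.19 for Ndufs1 and -0.40 for Sdha. These examples were picked after their values were seen, and no relation to the size or role of a subunit was tested. Across all members the difference was above 0 for 85 of 99 and above 1 for 46, with a median of 0.90.

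Other measures differed between the same arrays or between the female groups. The median deviation of 49 ribosomal protein probe sets was 0.38 on dehydrated female array 4, -0.50 on dehydrated female array 3 and -0.28 on control female array 4. Within groups, they had a median SD of 0.34 in females, and 47 ribosomal probe sets had 0.089 in males. The Gapdh 3' to 5' ratio was 1.68 on dehydrated array 4 and 4.12 on control array 2, against 1.02 to 1.25 on the other 6. Control array 2 was the low array for complex II, at -0.55, and for Uqcrfs1, which read 654 there and 1046, 1069.8 and 1115 on the other controls. Of 8 magnocellular neuron markers 3 rose in females, Calb2 by 0.87, Scg2 by 1.09 and Pdyn by 0.74 on the log2 scale, and none fell. Avp and Oxt did not pass. Avp read 3834 to 7666 in dehydrated and 3644 to 4254 in control females, and Oxt 3330 to 6698 and 3001 to 3576. The summed signals of the 8 markers were 14235 to 23113 in dehydrated and 12202 to 13491 in control females, without overlap. Oligodendrocyte markers fell for 3 of 6 genes, with summed signals of 3000.5 to 5244 in dehydrated and 5402 to 7664 in control females. Mural cell and meninges markers fell for 4 of 10, with 1264 to 1474 in dehydrated and 1834 to 3040.3 in control females. Blood markers fell for 1 of 2 (732 to 1672 in dehydrated and 1267 to 2431 in control females) and astrocyte markers for 1 of 7 (9504 to 11468 in dehydrated and 10037 to 11759 in control females). The part of these measures in the member values was not tested.

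**Figure D5:**
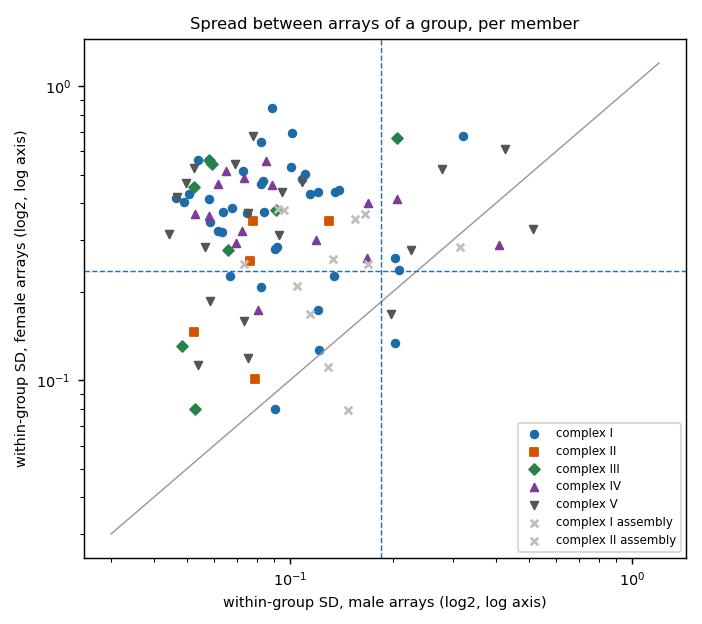
SD within groups of each member on the male arrays (horizontal) and the female arrays (vertical), on the log2 scale and on logarithmic axes, by complex. The line marks equal spread and the dashed lines the medians over all probe sets, 0.18 for males and 0.24 for females; 90 of 99 members have the larger value in females.

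The male effect was also set against the female effect, in a fit over the 18 arrays. None of the 99 members passed (limma, smallest adjusted p = 0.44), where 0.0322% of all probe sets did. At an unadjusted p under 0.05 there was 1 member, Sdha, whose male effect minus female effect was 0.26 ± 0.11, where 10.0% of all probe sets passed. The median SE of the difference was 0.22, more than most male effects, so a difference of the size of the male rises was not detectable here. Ndufv3 had 0.21 ± 0.24 and Atp5f1d -0.027 ± 0.18.

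Genes around the respiratory chain were read from lists of other roles, by 1 probe set a gene. Of the 68 genes tested in males 12 rose and 5 fell, where 8.33% and 9.37% of all probe sets did. With 1 probe set a gene, as in these lists, 13.7% of all genes tested rose and 12.3% fell. Of the 69 list genes tested in females none passed (limma), where 1.77% and 1.19% of all probe sets rose and fell. An unadjusted p under 0.05 was reached in females by 6 higher and 3 lower values, where 8.33% and 10.6% of all probe sets reached it. Cyc1, the haem subunit of complex III, averaged 1103 ± 62.5 in dehydrated and 971 ± 65.6 in control males and rose by 0.18 ± 0.057. Complex IV assembly gave 4 rises and 1 fall among 15 genes: Pet100 rose by 0.30 ± 0.08 and the copper chaperone Cox17 by 0.26 ± 0.07, and Cox15, an enzyme of haem A synthesis, fell by 0.25 ± 0.066. Foxred1, a complex I assembly factor, fell by 0.33 ± 0.10 and was the only call among 6.

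Among the carriers and outer membrane pores, 3 of 6 genes rose. Slc25a3, the phosphate carrier, averaged 2451 ± 58.4 in dehydrated and 2182 ± 141 in control males (0.17 ± 0.048), and the outer membrane pores Vdac3 and Vdac1 rose by 0.16 ± 0.045 and 0.15 ± 0.05. In the tricarboxylic acid cycle 1 of 13 genes rose, Idh3a by 0.28 ± 0.083, and 1 fell, Suclg2 by 0.24 ± 0.061. This count moved with scaling: 7 rose and 0 fell after median centring, and 0 rose and 1 fell after quantile normalization. Of 15 genes of mitochondrial DNA and biogenesis, the DNA helicase Twnk rose by 0.38 ± 0.11, and the transcription factors Nrf1 and Tfam fell by 0.44 ± 0.15 and 0.23 ± 0.074 with adjusted p of 0.0496 and 0.0472. Both falls were lost after quantile normalization and after centring. In a list of Ucp2, Slc25a14 and Slc25a27 together with Higd1a and Higd2a, 2 of 5 genes rose. Slc25a14, a carrier of the uncoupling protein family, rose by 0.35 ± 0.07 and Higd1a, a small protein that binds complex IV, by 0.29 ± 0.057. None of the 7 assembly factors of complexes III and V passed, with 2 values above and 1 below 0 at an unadjusted p under 0.05. Of the calls named from these lists, those of Cyc1, Cox17, Vdac3, Vdac1 and Idh3a were lost after quantile normalization, those of Cox15 and Suclg2 after centring, and that of Foxred1 after either.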

How the data were processed

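For every array the authors deposited an intensity for each probe set, made with GCOS 1.2 for males and MAS5 for females, per the labels' protocols and the submitters' processing notes. Each array's 2% trimmed mean was 100 as deposited, and the background and summary settings are not given in the sources used here. By the design text a pooled sample may be a biological or a technical replicate. The p-values therefore measure the spread between arrays, which may not be that between separate pools of rats. Levels are given on the deposited scale.

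For the tests, each array's trimmed mean was set to 500, 32 was added and log2 was taken. The 57 control probe sets were dropped, as were those with a mean at or under the 30th percentile. limma 3.58.1 (R 4.3.3; lmFit, eBayes with trend) was fitted on 21729 probe sets per set, with Benjamini-Hochberg adjustment over all of them and a threshold of 0.05. Fold changes are dehydrated over control. They understate the change of probe sets of low signal. The script was tested on simulated data. The number of arrays limits the precision. No 2 arrays held identical values. Alternatives were other scalings, offsets, filters, array weights, no trend, 1 probe set a gene, all groups in a single fit and each array left out.

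The members and the lists were chosen with earlier results of these data known. Named genes were, per class, the 3 rises and 3 falls of smallest p, a fixed core of subunits, isoform sets, Atp5if1, and up to 2 rises and 2 falls of each related list. The remaining called members, the complex I falls after quantile normalization and the examples of the female spread were named after their values were seen. Symbols come from the platform annotation, and all 101 matched RefSeq.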

Additional observations from a re-analysis of the deposited data

Results flagged for a closer look

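In groups of 4 or 5 arrays, a single array stood far from its group for 13 of 176 groups of values looked at, and chance gives about 1 in 20. Control female array 2 accounted for 6 of them: Sdhb read 578 there (834 to 884 on the other control females), Uqcrfs1 654 (1046 to 1115), Sdhaf2 257 (282 to 284), Cox7a2l 1824 (1602 to 1639) and Cox4i2 48.0 (27.4 to 30.7), and the median deviation of complex II was -0.55 (0.13 to 0.16). This array also had the highest Gapdh 3' to 5' ratio. On dehydrated female array 3, Sdha read 942 (707 to 728 on the other dehydrated females) and Cox5a 159.5 (233 to 235). Ndufa9 read 637 on control female array 4 (579 to 585 on the others).

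Cox8b, which was under the filter, read 4.75 on dehydrated female array 1 (2.37 to 2.70 on the others) and 13.4 on control female array 3 (2.96 to 4.59). In males, Ndufaf4 read 138 on dehydrated array 3 (115 to 121 on the others), and the median deviation of complex II was 0.12 on dehydrated array 2 (-0.078 to -0.031 on the others). The causes were not tested.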

How the results depend on the processing

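In males, 21 members rose and 2 fell. Of these rises 10 were kept after quantile normalization, which gave 10 rises and 6 falls, and all 21 after median centring, which gave 33 and 1. Without the mean-variance trend 8 rose and 1 fell, with all 4 groups in a single fit, which shares the wider female spread, 2 rose and 0 fell, and 1 fell under a filter at the 50th percentile or with 1 probe set a gene. Leaving out single arrays gave 14 to 21 rises and 2 to 3 falls. Ndufv3, Atp5f1d, Atp5if1, Ndufa5, Ndufc2, Ndufb7, Uqcrq and Cox6b1 (8 of 21) were called in each of these except the single fit, which kept Ndufv3 and Atp5f1d only. Male complex medians moved with scaling. Centring gave 0.16 in complex I, 0.0097 in II, 0.12 in III, 0.145 in IV and 0.18 in V. Quantile normalization gave -0.15 in II, -0.035 in III and 0.048 in V. Without single arrays they ran from 0.071 to 0.11 in I, -0.075 to -0.05 in II, 0.025 to 0.058 in III, 0.034 to 0.092 in IV and 0.077 to 0.12 in V.

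In females, array weights gave 2 falls, Sdha and Cox6a2. The single fit gave 1 rise, Atp5f1d, and 1 fall, Sdha, as did leaving out dehydrated array 3, so leaving out single arrays gave 0 to 1 of each. Female complex medians without single arrays ran from -0.068 to 0.32 in I, -0.20 to 0.086 in II, 0.058 to 0.22 in III, -0.036 to 0.28 in IV and 0.033 to 0.34 in V, so the sign in I, II and IV rests on 1 array. With the fifth dehydrated array, which lacks Avp and Oxt, they were -0.049 in V to -0.14 in II, all below 0, with 0 members called. The difference between sets stayed at 0 calls in each setting. No paired analysis was possible because the dehydrated samples carry no replicate numbers in the labels. Leaving out both arrays of high Gapdh 3' to 5' ratio, chosen after seeing the data, gave 0 female calls. At 4 or 5 arrays a group, the female spread limits what can be seen: the median SE was 0.21.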
